A study of Mus musculus with 36 samples.

Results

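Hypothalamic transcripts were compared between 6 CAST/EiJ and 6 C57BL/6J libraries from mice fed a high-fat and high-sugar diet (HFHS). These are 12 of the 36 libraries of the series, and they were chosen by the diet given in their titles, 44% fat with fiber. CAST/EiJ (CAST below) is an inbred strain derived from wild mice, and C57BL/6J (B6 below) is the laboratory strain from which the mouse reference genome was made. Each strain was represented by 3 females and 3 males, all labelled with a WT genotype and no treatment other than the diet, which began at 6 weeks of age. Tissue was taken at 15 weeks. The series also holds both strains on a control diet labelled 10% fat with fiber, in 6 libraries each, and NZO/HlLtJ (NZO below), an obesity-prone strain, on both diets. The 6 NZO libraries on HFHS are given here only as a level beside the other 2 strains. The labels name no separate animal or cage for a library, so p-values measure the spread between these samples, which may in part be technical. Whole tissue was pulverized, so that for any cell type fewer cells and less RNA per cell cannot be told apart.

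The hypothalamus sits at the base of the brain around the third ventricle and holds neurons that set hunger, arousal, body temperature and pituitary output. Its arcuate neurons make the hunger peptides Agrp and Npy or the satiety peptide precursor Pomc, and its lateral neurons make orexin (Hcrt) and melanin-concentrating hormone (Pmch). The tissue also holds myelinating oligodendrocytes, ciliated ependymal cells that line the ventricle, tanycytes, microglia and vessels. CAST belongs to another mouse subspecies than most of the B6 genome, and the 2 strains differ at many sites, among them histocompatibility and interferon-response loci.

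The summed level of the 15 pan-neuronal genes was 7029 to 7455 CPM (read counts scaled to library size) in the CAST libraries and 7061 to 7492 CPM in B6. The 28 hypothalamic transcription factors summed to 415 to 464 CPM against 394 to 467 CPM, and the 10 releasing and posterior pituitary hormones to 356 to 525 CPM against 327 to 525 CPM. Markers of the labelled tissue were thus present in all 12 libraries, at overlapping levels. Markers of neighbouring cortex, striatum and thalamus summed to 558 to 681 CPM in CAST and 542 to 610 CPM in B6. Library totals ran from 24.96 to 44.29 M estimated counts, and mitochondrial genes took 4.84 to 6.15% of them. The first principal component of the 12 libraries held 62.2% of the variance and separated the strains. One library, B6 male replicate 2, stood apart on the third component, which held 5.05%, and its levels relative to the mean of the 12 fell with the length of a gene's exons, by 0.08 on the log2 scale per doubling of length, while the slopes of the other 11 ran from -0.02 to 0.03. Without that library the myelin list kept 16 lower calls and the interferon list 27, and 6 of 242 genes followed through all alternatives lost their call, Ucn3 among them.

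At an adjusted p under 0.05, 8518 of 20053 tested genes differed between the strains on HFHS, which is 42.5%. Of these, 4036 (20.1%) were higher and 4482 (22.4%) were lower in CAST. Many differences were small: 54.8% of the called genes differed by less than 1.5-fold, and the median standard error over all genes was 0.10 on the log2 scale. A test against a fold of 1.5 called 2177 genes (10.9%), 803 (4.0%) higher and 1374 (6.85%) lower. Differences above 4-fold were fitted for 428 genes that were higher and 682 that were lower. The 6 CAST libraries lay wholly above the 6 B6 libraries in 2471 genes (12.3%) and wholly below them in 2751 genes (13.7%). The median log2 difference over all tested genes was -0.01. These shares are the background against which each gene list is read below.

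**Figure D1:**
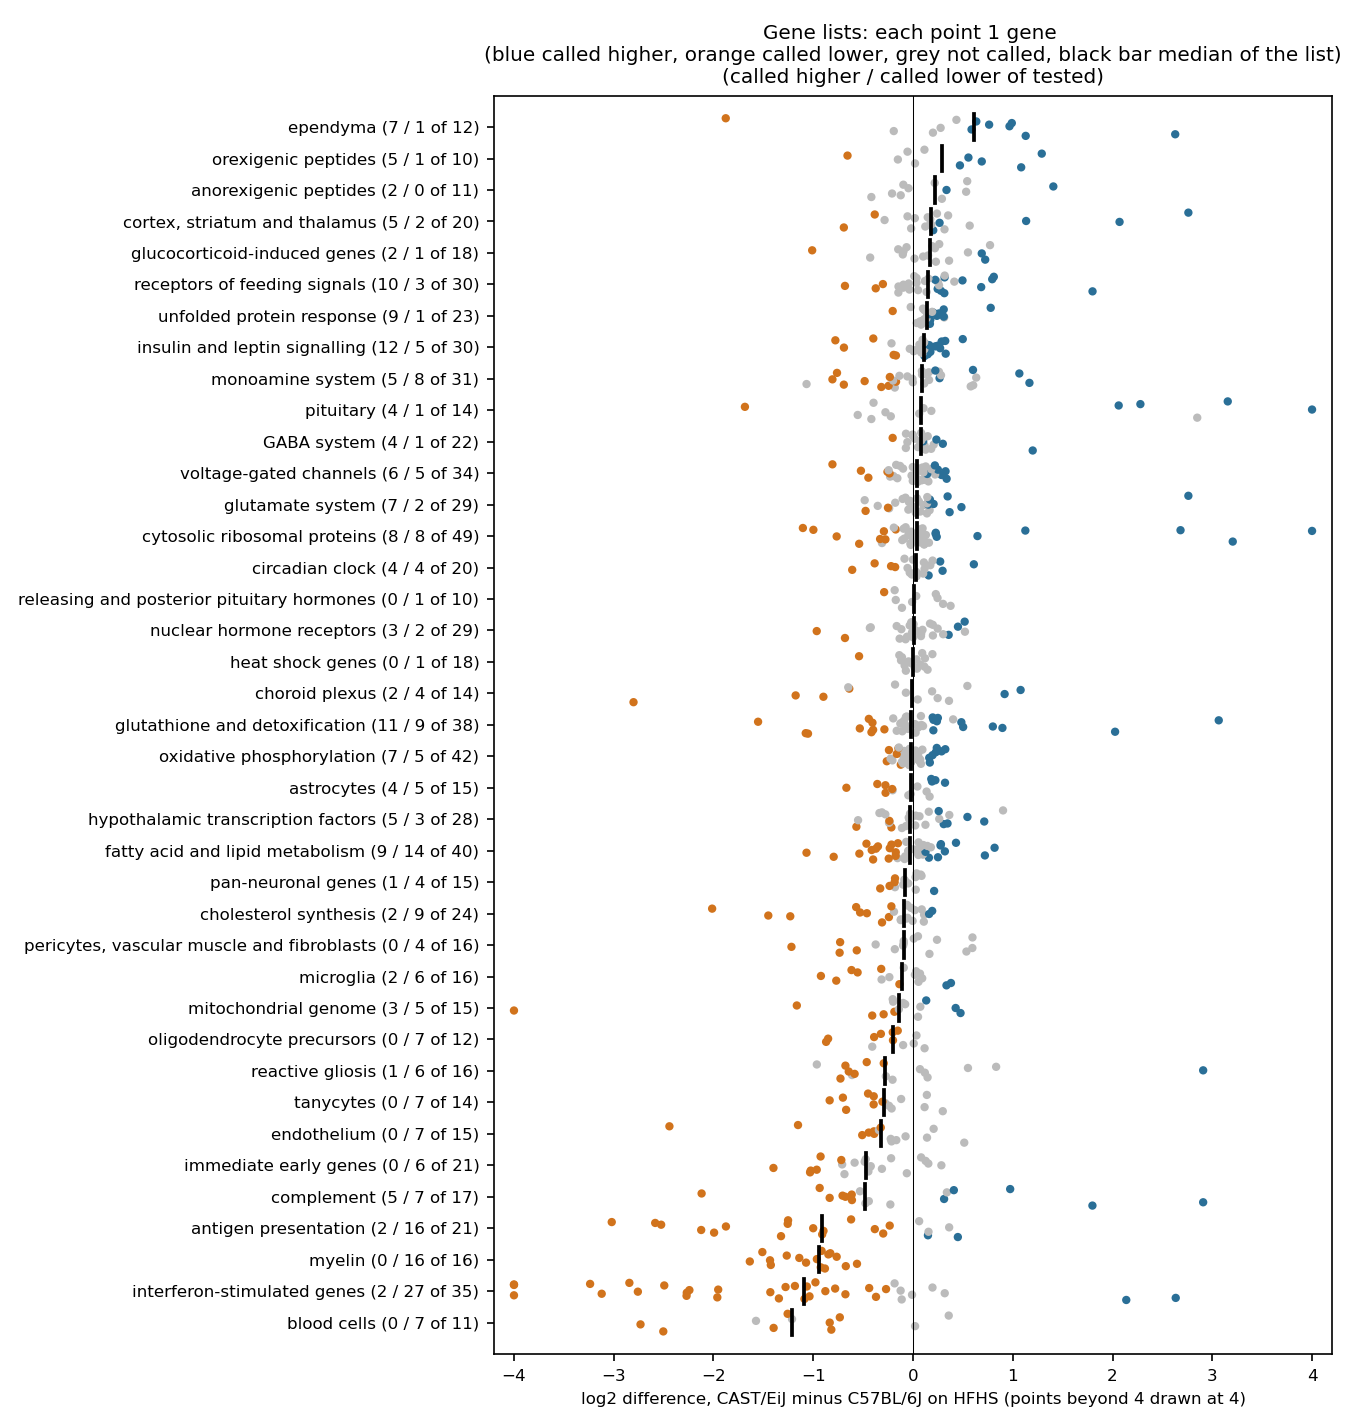
Log2 difference, CAST less B6 on HFHS, for every tested member of 39 gene lists, 1 point per gene. Blue points were called higher in CAST, orange points lower and grey points were not called, and the black bars are list medians. All 16 myelin genes lie below 0, and the ependyma list has the highest median, 0.61.

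Myelin genes, which oligodendrocytes use to build the insulating sheath of axons, were lower in CAST throughout the list. All 16 of 16 tested members were called lower, the median log2 difference was -0.94, and in all 16 the 6 CAST libraries lay below the 6 B6 libraries. The list summed to 2409 to 3302 CPM in CAST, 5118 to 7607 CPM in B6 and 4267 to 5025 CPM in NZO. The 3 strains did not overlap in this sum. Leaving out any HFHS library kept 16 lower calls, with medians from -1.05 to -0.86.

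Mobp, a structural protein of compact myelin, was at 218, 295 and 317 CPM (lowest, median and highest) in CAST and at 660, 882 and 1067 CPM in B6. It was 3.11-fold lower in CAST, a log2 difference of -1.64 ± 0.15 (SE; adjusted p = 3.44e-10). Trf, the iron carrier transferrin that oligodendrocytes express strongly, was at 108, 140 and 149 CPM against 324, 363 and 423 CPM. The highest CAST library was below the lowest B6 library for both genes, in females and males alike. Mal, a raft protein of myelin, was at 68.9, 81.7 and 88.4 CPM against 173, 214 and 251 CPM, and fell by 1.43 ± 0.14 on the log2 scale (adjusted p = 1.37e-09). Fa2h, which hydroxylates the fatty acids of myelin lipids, was at 16.4, 19.5 and 20.8 CPM against 35.9, 40.2 and 51.8 CPM (adjusted p = 4.15e-10). The fitted difference was smaller for another core myelin gene. Mbp, which compacts the membrane layers, was at 894, 1179 and 1247 CPM against 1639, 1992 and 2445 CPM, a log2 difference of -0.85 ± 0.12. The smallest difference on the list was that of the tetraspanin Tspan2, at -0.56.

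The list of oligodendrocyte precursors showed a weaker shift. Of 12 tested members of that list, 7 were called lower and 0 higher, with a median of -0.20. The largest ratio was that of Sox10, a transcription factor of the whole lineage, at 22.9, 26.8 and 29.3 CPM in CAST against 41.5, 48.6 and 54.2 CPM in B6 (log2 difference -0.87 ± 0.09, adjusted p = 2.13e-09). Olig1, another lineage factor, was at 76.6 to 91.9 CPM against 101 to 110 CPM, a log2 difference of -0.32. Both genes were lower in every CAST library than in any B6 library. Pdgfra and Cspg4, also on the list, were not called. Gpr17 and Neu4 were called lower but lost their calls in 6 and 3 of the 21 alternative analyses. Leaving out single libraries moved the lower calls of the list between 4 and 7.

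**Figure D2:**
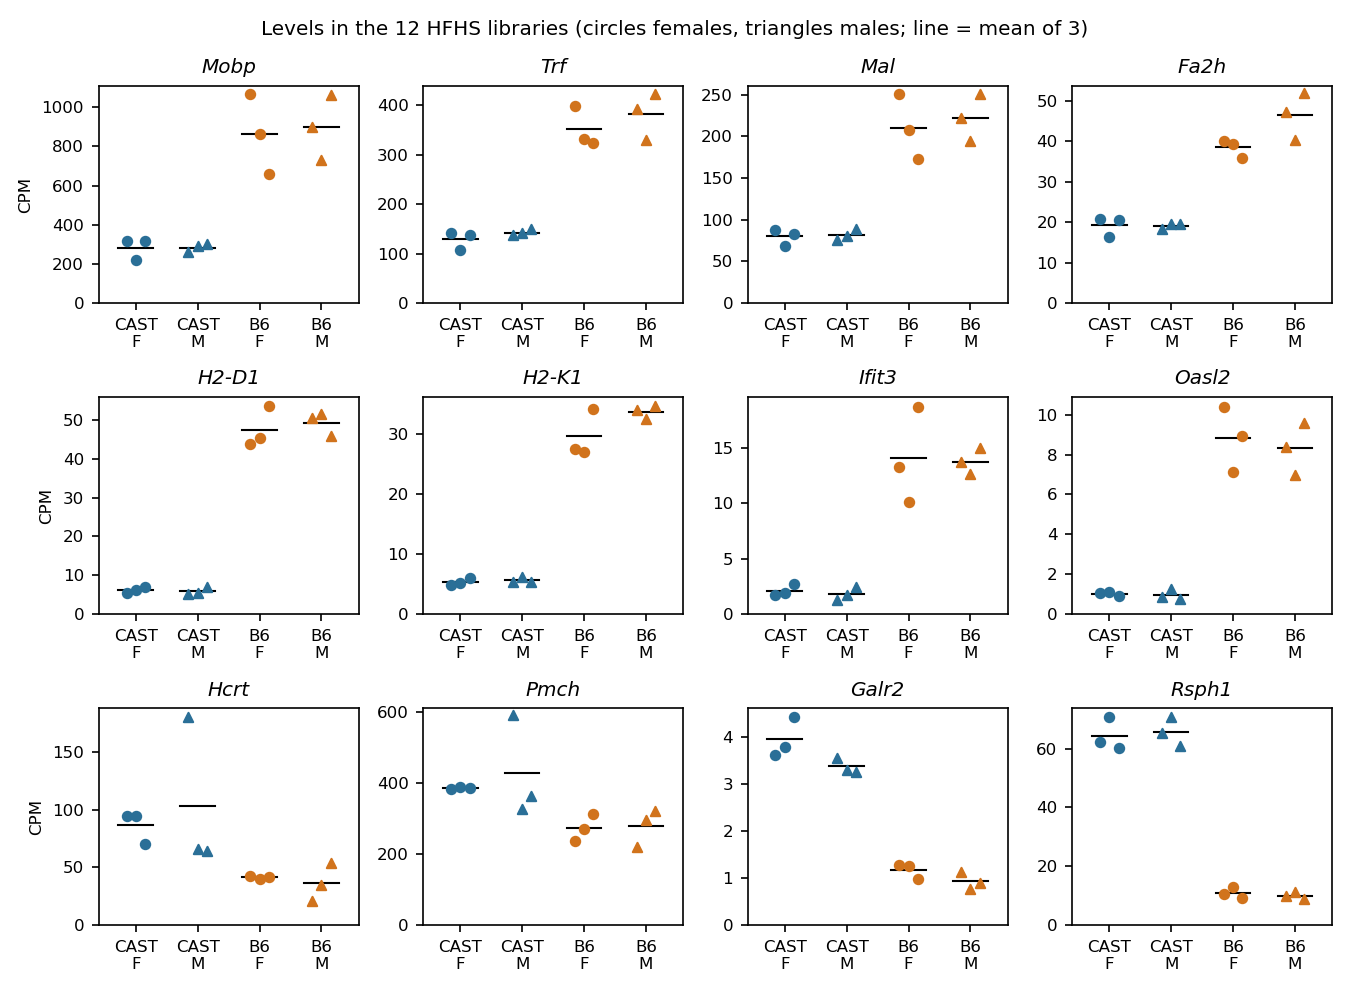
Level in CPM of 12 genes in each of the 12 HFHS libraries, with circles for females, triangles for males and lines for the mean of 3. For Mobp, Trf, Mal, Fa2h, H2-D1, H2-K1, Ifit3 and Oasl2 every CAST library is below every B6 library, and for Hcrt, Pmch, Galr2 and Rsph1 every CAST library is above.

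Genes that interferons switch on were also mostly lower in CAST. Interferons are cytokines of antiviral defence that act through a complex of transcription factors, which binds a DNA element known as the interferon-stimulated response element (ISRE). To show what such genes carry at their start, the promoters of 3 of them are printed, each from 250 bases before to 50 bases after the start site in the RefSeq annotation of GRCm38.p6, which is B6 sequence. Capitals mark each match to GAAANNGAAA, searched on both strands with overlapping matches counted. Ifit3 lies on the plus strand (chr19:34583279-34583578), and Irgm1 (chr11:48871371-48871670) and Isg15 (chr4:156200769-156201068) lie on the minus strand.
Ifit3: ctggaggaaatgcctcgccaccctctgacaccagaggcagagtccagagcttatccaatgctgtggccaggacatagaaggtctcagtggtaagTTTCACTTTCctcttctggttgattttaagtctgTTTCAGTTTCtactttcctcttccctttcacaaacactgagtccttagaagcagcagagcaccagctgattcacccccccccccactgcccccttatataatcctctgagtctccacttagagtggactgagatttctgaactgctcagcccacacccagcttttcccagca
Irgm1: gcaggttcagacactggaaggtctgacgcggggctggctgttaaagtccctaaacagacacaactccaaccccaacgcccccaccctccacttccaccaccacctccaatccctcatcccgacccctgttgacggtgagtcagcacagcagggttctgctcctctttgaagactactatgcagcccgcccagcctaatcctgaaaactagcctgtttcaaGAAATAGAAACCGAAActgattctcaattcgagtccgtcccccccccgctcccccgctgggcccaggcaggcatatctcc
Isg15: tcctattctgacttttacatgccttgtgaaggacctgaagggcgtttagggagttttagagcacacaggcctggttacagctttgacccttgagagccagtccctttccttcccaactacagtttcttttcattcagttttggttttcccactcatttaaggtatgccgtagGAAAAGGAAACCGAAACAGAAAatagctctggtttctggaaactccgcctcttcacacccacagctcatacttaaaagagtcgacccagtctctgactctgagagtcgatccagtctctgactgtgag
The matches begin 156 and 122 bases before the start site in Ifit3, 30 and 24 bases before it in Irgm1, and 78, 72 and 66 bases before it in Isg15. Of the 24 tested interferon-stimulated genes with a promoter in the RefSeq table, 17 held a match in at least 1 promoter, against 3.99% of 27025 genes with a promoter there. The share was 16 of 21 among those called lower in CAST, 3 of 16 for antigen presentation genes, 1 of 10 for ependyma genes and 0 of 11 for myelin genes. A match describes the reference sequence and is no evidence of binding, and the CAST sequence was not used here.

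Of 35 tested interferon-stimulated genes, 27 were called lower and 2 higher, with a median log2 difference of -1.09. The libraries did not overlap in 26 of them, 24 with CAST below and 2 with CAST above. The list summed to 146 to 161 CPM in CAST, 213 to 271 CPM in B6 and 248 to 303 CPM in NZO. Ifit3, an RNA-binding antiviral effector, was at 1.23, 1.83 and 2.71 CPM in CAST and at 10.1, 13.5 and 18.7 CPM in B6 (7.18-fold lower, log2 difference -2.84 ± 0.19, adjusted p = 1.45e-13). Every CAST library was below every B6 library, and NZO was at 7.58 to 10.1 CPM. Oasl2, of the oligoadenylate synthetase family, was at 0.772, 0.982 and 1.23 CPM against 6.98, 8.66 and 10.4 CPM, which is 8.70-fold lower. Irgm1, an immunity-related GTPase, was at 3.92, 4.30 and 5.02 CPM against 8.91, 9.62 and 12.2 CPM (log2 difference -1.18 ± 0.10). Neither gene overlapped between the strains.

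Isg15, a ubiquitin-like modifier, was near the limit of detection, at 0.14, 0.27 and 0.4 CPM in CAST against 0.69, 0.989 and 1.46 CPM in B6 (adjusted p = 1.43e-05). For Iigp1, another immunity-related GTPase, the 6 CAST libraries together held 1 estimated count and the 6 B6 libraries 389, a ratio with a counting interval from 76.5 to 16984. That interval covers counting noise alone and leaves out the spread between libraries. The exceptions were the dynamin-like GTPases Mx1 and Mx2, which are named because they were the 2 members that rose, after their values were seen. Mx2 was at 5.16, 6.01 and 6.39 CPM in CAST against 0.579, 1.01 and 1.17 CPM in B6, and Mx1 at 0.714, 0.785 and 1.06 CPM against 0.0694, 0.158 and 0.447 CPM. Both were higher in every CAST library. NZO resembled B6 for Mx2 (0.0568 to 0.699 CPM) and exceeded CAST for Mx1 (1.99 to 4.71 CPM).

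Antigen presentation genes, whose products load peptides onto class I and class II histocompatibility molecules, were lower in 16 of 21 tested members and higher in 2, with a median of -0.91. The list summed to 176 to 184 CPM in CAST and 256 to 327 CPM in B6. H2-D1, a classical class I heavy chain, was at 5.28, 5.77 and 6.91 CPM against 43.9, 48.1 and 53.5 CPM (8.11-fold lower, log2 difference -3.02 ± 0.11, adjusted p = 1.33e-20). H2-K1, the other classical heavy chain, was at 4.83, 5.40 and 6.10 CPM against 27.1, 33.2 and 34.7 CPM (5.75-fold lower). Neither overlapped between the strains. Both genes are highly polymorphic between mouse strains, and whether reads from the CAST alleles were matched as fully as those from B6 was not tested. B2m, the invariant light chain that pairs with them, was at 44.3, 47.9 and 51.5 CPM against 49.7, 57.2 and 60.7 CPM, a log2 difference of -0.23 ± 0.09 (adjusted p = 0.0307). Nlrc5, the activator of class I transcription, fell by 1.25 ± 0.18, and Cd74, the invariant chain of class II, was at 2.06 to 2.74 CPM against 4.56 to 14.3 CPM. B2m and Cd74 are named here as partners of the class I and class II chains, after their values were seen.

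Complement genes moved in both directions, with 5 higher and 7 lower of 17. C3, the central component of the cascade, was at 35.0, 39.7 and 49.1 CPM in CAST against 4.75, 5.27 and 5.96 CPM in B6 (7.51-fold higher, log2 difference 2.91 ± 0.25, adjusted p = 4.4e-11), with NZO at 10.1 to 22.6 CPM. C4a, a relative of the complement component C4, was at 10.3, 12.2 and 13.4 CPM against 2.40, 3.49 and 4.36 CPM. For both genes all CAST libraries were above all B6 libraries. The chains of C1q, which starts the classical pathway and is made by microglia, went the other way: C1qc was at 11.8, 13.4 and 15.4 CPM against 20.2, 22.1 and 23.03 CPM, and C1qa fell by 0.68 ± 0.10. Cd59a, an inhibitor of the final step of complement attack, fell by 0.84 ± 0.09.

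Microglial genes were called lower in 6 and higher in 2 of 16 members, a median of -0.11. The estimate was above 0 in 7 members, at most 0.38, and below 0 in 9. Every CAST library was above every B6 library in 1 member and below in 4, so the 2 genes given next do not stand for the whole list. Itgam, an integrin that marks microglia and macrophages, was at 9.19, 10.3 and 11.1 CPM in CAST against 16.5, 19.7 and 21.1 CPM in B6 (log2 difference -0.92 ± 0.07, adjusted p = 1.29e-11). Trem2, a lipid-sensing receptor of microglia, was at 2.09, 3.10 and 3.45 CPM against 4.30, 5.20 and 6.10 CPM. Both genes were lower in all CAST libraries. The summed microglial level was 1406 to 1597 CPM against 1624 to 1766 CPM. Astrocyte genes had 4 higher and 5 lower of 15, with overlapping sums of 7889 to 8568 and 7784 to 8744 CPM. Among 16 genes of reactive gliosis 6 were lower and 1 was higher. Gfap, the intermediate filament of astrocytes, was at 147, 201 and 239 CPM against 254, 298 and 339 CPM (log2 difference -0.59 ± 0.18, adjusted p = 0.00937), and NZO reached 760 to 1196 CPM. On the control diet the Gfap estimate had the other sign, 0.28 ± 0.18 (adjusted p = 0.219). There the reactive gliosis genes summed to 1173 CPM in CAST female replicate 1 and to 407 to 534 CPM in the other CAST libraries. Without that library the list median on the control diet went from 0.35 to 0.10.

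Peptides that promote feeding were higher in CAST in 5 of 10 tested members and lower in 1, with a median of 0.29. Their summed level was 555 to 988 CPM in CAST and 425 to 544 CPM in B6, so every CAST library was above every B6 library. Pmch made up most of this sum, and only 2 of the 10 members, Hcrt and Pmch, were separated in all libraries. Hcrt, the orexin precursor of the lateral hypothalamus, was at 64.6, 82.4 and 180 CPM in CAST against 20.9, 40.8 and 53.9 CPM in B6 (2.45-fold higher, log2 difference 1.29 ± 0.28, adjusted p = 0.000325). Pmch, the precursor of melanin-concentrating hormone, was at 326, 385 and 593 CPM against 221, 283 and 323 CPM (log2 difference 0.56 ± 0.15, adjusted p = 0.00374). The highest value of both genes came from CAST male replicate 1. Without that library the log2 difference was 0.98 for Hcrt (adjusted p = 0.00302) and 0.42 for Pmch, and both kept their call.

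In the arcuate pair, Agrp was at 2.91, 4.51 and 8.21 CPM in CAST against 1.79, 2.04 and 2.96 CPM in B6 (log2 difference 1.08 ± 0.29, adjusted p = 0.00263). Npy was at 12.7, 18.2 and 25.7 CPM against 8.47, 11.1 and 15.8 CPM (log2 difference 0.69 ± 0.23, adjusted p = 0.014), and its adjusted p was 0.0511 without CAST male replicate 1. The libraries of both genes overlapped between the strains. Gal, the galanin precursor, rose by 0.47 ± 0.13, while Qrfp, which encodes a further appetite-promoting peptide, fell by 0.66 ± 0.18. The satiety side showed fewer calls, with 2 higher and 0 lower of 11. Pomc was at 28.1, 38.5 and 52.4 CPM against 44.7, 52.9 and 66.3 CPM, a log2 difference of -0.42 ± 0.18 that did not pass the test (adjusted p = 0.0582). Cartpt, a satiety peptide found in many of the same neurons, was at 33.1 to 49.4 CPM against 37.6 to 54.7 CPM (log2 difference -0.12 ± 0.12, adjusted p = 0.416). The called members were Nucb2, the nesfatin precursor, at 22.99, 26.4 and 27.5 CPM against 19.2, 20.6 and 21.3 CPM, and Ucn3, a urocortin. Ucn3 ranged from 0.183 to 2.89 CPM within B6, and its call (adjusted p = 0.0294) was lost in 6 of the 21 alternative analyses.

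Receptors of feeding signals were called higher in 10 and lower in 3 of 30. Galr2, a galanin receptor, had the largest ratio, at 3.26, 3.59 and 4.44 CPM in CAST against 0.769, 1.06 and 1.28 CPM in B6 (3.48-fold higher, adjusted p = 1.06e-10), with NZO at 0.669 to 1.11 CPM. Every CAST library was above every B6 library. Ghsr, the ghrelin receptor, was at 13.5, 15.4 and 16.9 CPM against 6.54, 7.91 and 15.3 CPM (log2 difference 0.81 ± 0.16), with a single B6 library inside the CAST range. The cholecystokinin receptors moved apart: Cckar rose by 0.68 ± 0.10 and Cckbr fell by 0.68 ± 0.10. The receptors of neuropeptide Y did so too, with Npy5r up by 0.50 ± 0.11 and Npy2r at a log2 difference of -0.37 ± 0.08. The receptors of leptin and melanocortin did not pass the test. Lepr was at 11.9, 13.9 and 15.4 CPM against 6.98, 10.8 and 15.4 CPM (adjusted p = 0.132), and Mc4r at 2.87 to 4.43 CPM against 2.88 to 4.13 CPM (adjusted p = 0.398). Lepr and Mc4r are named as receptors of the list's main hormones.

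Genes of insulin and leptin signalling had 12 higher and 5 lower calls of 30, at a median of 0.11, so that most differences were small. Irs1, the adaptor that insulin receptors phosphorylate, was at 37.4, 39.1 and 42.5 CPM in CAST against 24.01, 27.9 and 31.7 CPM in B6 (log2 difference 0.50 ± 0.09, adjusted p = 4.72e-05). Igf1r, the receptor of insulin-like growth factor, rose by 0.33 ± 0.06, and Foxo3, a transcription factor restrained by insulin, rose by 0.32 ± 0.06. For all 3 genes the CAST libraries lay above those of B6. Of the inhibitors on the list, Grb10 was slightly higher, at 0.17, and others were lower: Grb14, which blocks the insulin receptor, was at 9.90, 10.7 and 12.02 CPM against 16.1, 17.3 and 19.5 CPM (log2 difference -0.69 ± 0.07, adjusted p = 1.97e-09). Socs3, which leptin induces and which blocks its receptor, was at 2.40, 2.95 and 3.88 CPM against 4.10, 5.04 and 6.69 CPM (log2 difference -0.78 ± 0.16, adjusted p = 0.000242). Neither Grb14 nor Socs3 overlapped between the strains. On the control diet Socs3 differed by -0.11 ± 0.16 (adjusted p = 0.634), and the test of the diet difference gave an adjusted p of 0.36. Ide, the insulin-degrading enzyme, was at 117 and 109 CPM in 2 B6 males and at 51.8 to 59.9 CPM in the other 10 libraries, so its call rests on those males.

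Ependymal genes, which build the motile cilia of the ventricle wall, were higher in CAST in 7 of 12 members and lower in 1, with a median of 0.61. The list summed to 199 to 255 CPM in CAST, 89.6 to 135 CPM in B6 and 116 to 146 CPM in NZO. Rsph1, a radial spoke protein of the cilium, was at 60.2, 63.7 and 70.7 CPM in CAST against 8.85, 10.3 and 12.9 CPM in B6 (6.18-fold higher, log2 difference 2.63 ± 0.15, adjusted p = 4.82e-15). Dnah11, a dynein of the ciliary arm, was at 18.9, 21.99 and 30.8 CPM against 9.09, 10.2 and 12.8 CPM. Foxj1, the master regulator of motile cilia, was at 26.0, 31.8 and 35.0 CPM against 15.7, 21.2 and 23.5 CPM (log2 difference 0.59 ± 0.17, adjusted p = 0.00489). For these 3 genes all CAST libraries were above all B6 libraries. The member that fell was Mia, at 0.286, 0.649 and 1.31 CPM against 1.71, 2.52 and 3.27 CPM.

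Tanycytes, the elongated cells of the ventricle floor, had 7 lower and 0 higher calls of 14, at a median of -0.29. Nes, an intermediate filament of progenitor-like cells, was at 11.3, 13.8 and 16.1 CPM against 20.1, 22.1 and 23.5 CPM (log2 difference -0.67 ± 0.09). Leaving out single libraries moved the lower calls of this list between 3 and 6, so the count depends on them (fewer libraries also give less power). Choroid plexus genes went both ways, with 2 higher and 4 lower of 14. Tmem72 was at 246, 273 and 319 CPM in CAST against 100, 135 and 150 CPM in B6, while Clic6, a chloride channel protein, was at 11.3, 12.4 and 13.7 CPM against 24.04, 28.7 and 31.5 CPM. These 2 genes were separated in opposite directions in all libraries.

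Endothelial genes had 7 lower and 0 higher calls of 15 (4 to 8 lower when single libraries were left out). Genes of pericytes, vascular muscle and fibroblasts had 4 lower calls of 16 (25.0%, near the 22.4% over all genes) and 0 higher. Ly6a, a surface antigen of vessels, was at 2.06, 2.38 and 2.63 CPM against 10.9, 12.9 and 14.6 CPM (5.43-fold lower), and Ly6c1, of the same family, fell by 1.15 ± 0.12. Rgs5, a signalling regulator of pericytes, was at 38.9, 42.0 and 43.7 CPM against 85.6, 97.7 and 113 CPM (log2 difference -1.22 ± 0.14, adjusted p = 3.16e-08). All 3 were lower in every CAST library. Blood cell genes had 7 lower calls of 11. Hbb-bs, an adult beta-globin, was at 72.3, 96.2 and 127 CPM against 117, 149 and 300 CPM, and its highest values were 300 and 246 CPM in B6 females 1 and 2. The blood list summed to 248 to 392 CPM in CAST and 353 to 848 CPM in B6. Whether the blood level has a part in the vascular calls was not tested.

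Immediate early genes, which neurons switch on within minutes of activity, had 6 lower and 0 higher calls of 21. The same 2 B6 females were high: the list summed to 933 and 982 CPM there, to 328 to 472 CPM in the other 4 B6 libraries and to 383 to 470 CPM in CAST. Nr4a1, an activity-induced nuclear receptor, was at 11.7, 13.8 and 19.2 CPM against 10.1, 23.9 and 84.8 CPM. The list median was -1.19 in females and 0.15 in males. Arc, a synaptic protein of active neurons, was the member without overlap, at 7.66, 9.68 and 12.9 CPM against 13.5, 14.9 and 34.7 CPM (log2 difference -1.03 ± 0.18, adjusted p = 2.14e-05). Without B6 female replicate 2 the list had 4 lower calls. On the control diet 14 of its members were called lower and 0 higher, at a median of -1.02. There the list summed to 328 to 458 CPM in CAST. In B6 it summed to 542 to 984 CPM, except for 316 CPM in male replicate 3. Pituitary transcripts were unequal too: Cga, the shared subunit of glycoprotein hormones, was at 14.1, 26.9 and 34.3 CPM in CAST against 1.23, 5.57 and 14.1 CPM in B6, and Fshb, the beta subunit of follicle-stimulating hormone, at 2.23 to 7.61 CPM against 0 to 0.799 CPM. The whole pituitary list of 14 had 4 higher and 1 lower calls, and its sums overlapped at 492 to 572 and 483 to 587 CPM. In 3 members every CAST library was above every B6 library, and in 1 every one was below. The list also holds Pomc, which arcuate neurons make, so the list's sum does not measure pituitary tissue alone. The part of pituitary tissue in the Pomc level was not tested.

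Genes of neuronal signalling showed few calls against the background of 42.5%. The GABA system had 4 higher and 1 lower of 22, the glutamate system 7 and 2 of 29, voltage-gated channels 6 and 5 of 34, and nuclear hormone receptors 3 and 2 of 29. Leaving out single libraries moved the higher calls of the GABA list from 2 to 6, of the glutamate list from 5 to 9 and of the channel list from 3 to 7, with 2 to 7 lower calls in the last. Gabra2, a subunit of the GABA-A receptor, was the clearest, at 175, 187 and 190 CPM in CAST, 69.2, 80.4 and 96.99 CPM in B6 and 151 to 199 CPM in NZO (2.30-fold higher in CAST than in B6, adjusted p = 1.96e-16). The B6 libraries lay below those of both other strains. In the glutamate system Grin2c, an NMDA receptor subunit, rose by 0.49 ± 0.05, and Gria1, an AMPA receptor subunit, was at 472, 493.3 and 520 CPM against 574, 588 and 606 CPM (log2 difference -0.25 ± 0.04). Slc17a7, a vesicular glutamate transporter that marks cortex and thalamus more than hypothalamus, was called 6.78-fold higher, but it ranged from 0.363 to 8.84 CPM within CAST and from 0.0365 to 3.49 CPM within B6. Kcnj11, the pore of the ATP-sensitive potassium channel, was at 2.43, 3.29 and 3.86 CPM against 4.601, 5.90 and 6.52 CPM (log2 difference -0.81 ± 0.10).

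The monoamine list had 5 higher (16.1%) and 8 lower (25.8%) calls of 31, near the shares over all genes (20.1% and 22.4%). Hdc, the enzyme that makes histamine in the tuberomammillary nucleus, was at 29.3, 37.9 and 40.8 CPM in CAST against 53.2, 63.2 and 77.6 CPM in B6 (log2 difference -0.81 ± 0.11, adjusted p = 9.74e-07). Maob, which breaks down monoamines, was at 29.0, 31.9 and 35.9 CPM against 51.8, 55.0 and 55.7 CPM. Drd5, a dopamine receptor, rose by 1.07 ± 0.14. These 3 genes did not overlap between the strains. Among 28 hypothalamic transcription factors 5 were higher and 3 lower. Tbx3, a factor of arcuate neurons, was at 14.3, 16.9 and 20.02 CPM against 21.6, 24.8 and 29.3 CPM. Clock genes had 4 calls each way of 20, led by Rorb, an orphan receptor, at 78.7, 83.1 and 90.0 CPM against 46.0, 56.0 and 63.0 CPM. Glucocorticoid-induced genes had 2 higher and 1 lower of 18, among them Fkbp5, a chaperone partner of the receptor, which rose by 0.69 ± 0.15. That list was again high in B6 females 1 and 2, at 992 and 854 CPM against 509 to 558 CPM in the other 4 B6 libraries, and its median was -0.15 in females and 0.49 in males.

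Both lipid lists had more lower than higher calls in CAST. Cholesterol synthesis had 9 lower and 2 higher calls of 24, at a median of -0.09. Pmvk, a kinase of the mevalonate pathway, was at 10.8, 11.2 and 14.04 CPM in CAST against 26.9, 32.2 and 36.3 CPM in B6 (2.73-fold lower, log2 difference -1.45 ± 0.08, adjusted p = 3.19e-16). Hsd17b7, which acts late in the pathway, was at 5.92, 7.38 and 8.50 CPM against 16.4, 16.8 and 18.8 CPM. Idi1, which interconverts the isoprene units of the pathway, fell by 0.57 ± 0.09. Oligodendrocytes are a main site of cholesterol synthesis in brain, and the part of the lower myelin level in these calls was not tested. Fatty acid and lipid metabolism had 14 lower and 9 higher of 40. Scd2, a desaturase abundant in brain, was at 2119, 2206 and 2279 CPM against 2772, 2929 and 3128 CPM. Plin2, a coat protein of lipid droplets, rose by 0.82 ± 0.09. Both genes were separated in all libraries.

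Genes of glutathione and detoxification had 11 higher (28.9%) and 9 lower (23.7%) calls of 38, against 20.1% and 22.4% over all genes. Gstm7, a glutathione transferase, was at 105, 110 and 113 CPM in CAST against 24.6, 26.7 and 29.0 CPM in B6, and Gsta4, of another class of the family, was at 9.11, 11.4 and 13.6 CPM against 30.6, 33.8 and 36.7 CPM. Nnt, the mitochondrial enzyme that makes NADPH and carries a known deletion in B6, was at 38.6, 40.2 and 41.5 CPM against 21.6, 22.1 and 26.4 CPM, with NZO at 34.7 to 39.04 CPM. The 3 genes did not overlap between CAST and B6. The unfolded protein response had 9 higher and 1 lower of 23, with ratios near 1: Hyou1, a chaperone of the endoplasmic reticulum, rose by 0.31 ± 0.05 and Hspa5 by 0.26 ± 0.09. Single libraries moved the higher calls of this list from 4 to 12. Heat shock genes had 0 higher and 1 lower of 18, oxidative phosphorylation 7 and 5 of 42, and cytosolic ribosomal proteins 8 and 8 of 49.

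Single genes differed far more than the median of any list. Fam213b, a prostamide synthase (chr4:154895504-154899135), had 0 estimated counts in all 6 CAST libraries and 37.2, 42.5 and 45.7 CPM in B6, at least 2957-fold lower against a floor of 3 counts over the group. Pon2, an intracellular paraoxonase (chr6:5264147-5298455), was at 1.69, 2.20 and 2.79 CPM against 41.5, 45.4 and 48.1 CPM (20.6-fold lower, log2 difference -4.36 ± 0.11, adjusted p = 3.46e-24). In NZO, Fam213b was at 31.7 to 47.4 CPM and Pon2 at 31.4 to 37.1 CPM, so the low level was seen in CAST alone of the 3 strains. Retsat, retinol saturase (chr6:72598475-72608425), was at 92.3, 94.7 and 107 CPM in CAST against 14.5, 14.9 and 16.3 CPM in B6 (6.53-fold higher, adjusted p = 5.73e-23). Wdfy1, an endosomal adaptor, was at 121, 124 and 130 CPM against 28.7, 30.2 and 34.5 CPM, with NZO near CAST at 91.2 to 105 CPM. Madd, a guanine exchange factor of vesicle traffic, was at 71.2, 76.5 and 77.9 CPM against 23.6, 25.6 and 28.6 CPM. Mttp, which loads lipid onto lipoproteins, was at 10.8, 11.6 and 12.7 CPM against 31.6, 33.5 and 35.7 CPM. It overlaps Trmt10a, which was also lower, and the files do not say how shared reads were counted.

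Further single genes separated the strains widely. Firre, a long noncoding RNA of the X chromosome, was at 13.4, 17.6 and 19.1 CPM in CAST and at 106, 124 and 124 CPM in B6. Nkain2, a partner of the sodium pump, was at 3.54, 4.05 and 4.74 CPM against 28.3, 32.5 and 37.3 CPM. Hipk4, a kinase, was at 0.97, 1.39 and 1.74 CPM against 22.5, 23.3 and 24.3 CPM. In NZO these genes were at 112 to 131, 24.9 to 27.9 and 17.8 to 21.1 CPM, nearer to B6 than to CAST. Myoc, myocilin, was at 0.145, 0.185 and 0.4 CPM in CAST, at 14.1, 24.3 and 28.6 CPM in B6 and at 1.96 to 3.53 CPM in NZO. Pttg1, securin, was at 0.508, 0.802 and 1.37 CPM against 15.4, 18.6 and 20.8 CPM, and NZO was at 1.92 to 3.27 CPM. For Myoc all 3 strains were separate, and for Pttg1 NZO was nearer to CAST than to B6. Tas1r1, a taste receptor subunit, was at 48.0, 55.4 and 73.0 CPM in CAST against 3.47, 3.70 and 4.26 CPM in B6 and 2.57 to 4.80 CPM in NZO. Erdr1 was at 0.411, 0.594 and 1.00 CPM in CAST and ranged from 37.9 to 134 CPM within B6, where the 3 females were above the 3 males.

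Some of the largest ratios belonged to genes with near-identical copies elsewhere in the genome, for which the sharing of reads between copies is uncertain. Of 61 genes searched, 30 had a copy with at least 95% identity over at least 200 bases. The search covered the genes named for the smallest p-values or largest differences, and the called ribosomal and mitochondrial genes. Other members of the gene lists were not searched, so whether they share reads with close copies was not tested. Amd2 was at 65.0 CPM in CAST and 0.504 CPM in B6, but summed with its copies, mainly Amd1, the level was 145 ± 4.13 CPM against 145 ± 12.3 CPM (SD, n = 6 each). Tpm3-rs7 with Tpm3 came to 120 against 115 CPM, and Eno1b with Eno1 and a pseudogene to 526.3 against 566.3 CPM. Tagap with Tagap1 came to 41.5 against 41.1 CPM. In ribosomal protein genes the counts moved between the gene and a processed pseudogene: Rpl17 was at 236 CPM in CAST and 9.40 CPM in B6, and with its pseudogenes the sums were 238 and 219 CPM. Rpl9-ps6 was at 0.239 CPM in CAST and 213 CPM in B6, and with Rpl9 the sums were 252 and 231 CPM. The mitochondrial gene mt-Co2 was at 5.12 against 2098 CPM alone, and at 4192 against 5219 CPM with its nuclear copies.

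Other genes kept a difference after the sum. Srp54b, of the signal recognition particle, was at 66.3 CPM in CAST and 220 CPM in B6, and at 90.0 against 244 CPM with Srp54a. The sums were 12.2 against 34.3 CPM for Tmem254b and its copies, 1.95 against 13.0 CPM for the GTPase Gvin1 and 0.662 against 77.5 CPM for Erdr1. The sum for Rps15, a ribosomal protein gene, was 114 against 210 CPM. Sums do not recover reads that matched none of the copies.

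**Figure D3:**
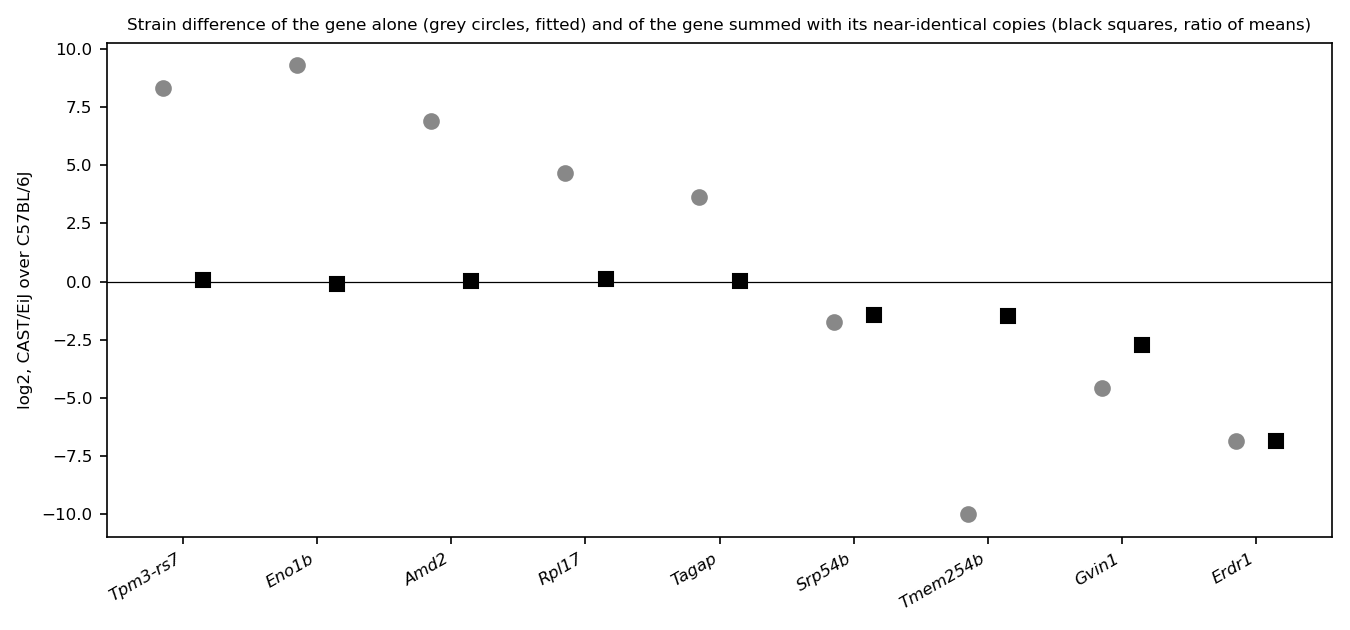
Log2 difference, CAST over B6, of 9 genes alone (grey circles, fitted values) and summed with near-identical copies (black squares, ratio of the means of 6 libraries). The 5 genes at the left fall to near 0 when summed, while Srp54b, Tmem254b, Gvin1 and Erdr1 stay below 0.

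By annotated class, 21.5% of 16023 protein-coding genes were higher and 21.7% lower in CAST, with a median of 0.00. Of 2087 long noncoding RNAs 293 were higher and 558 lower (26.7%), with a median of -0.16, and of 650 pseudogenes 156 were higher and 150 lower. In 16 genes all CAST libraries were at 0 while B6 averaged at least 1 CPM, and in 11 genes the reverse held.

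Tested apart by sex, 5770 genes (28.8%) were called in females and 5563 (27.7%) in males. Across the 15404 genes with a mean of at least 1 CPM the differences of the sexes correlated at r = 0.934, a description over genes, which are not independent replicates. The test of the sex difference itself called 1 gene, which is 0.00499%. Nbr1, an autophagy receptor, was at 195 to 207 CPM in CAST females, at 294 to 424 CPM in CAST males and at 166 to 179 CPM in B6 of both sexes. The female difference was 0.23, the male difference 1.13, and the difference between them -0.90 (adjusted p = 0.0354). That call was lost when only the 12 libraries were fitted (adjusted p = 0.203). It was also lost without any of 11 of the 12 libraries, at adjusted p-values from 0.0651 to 0.274, and was 0.00027 without CAST male replicate 2.

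**Figure D4:**
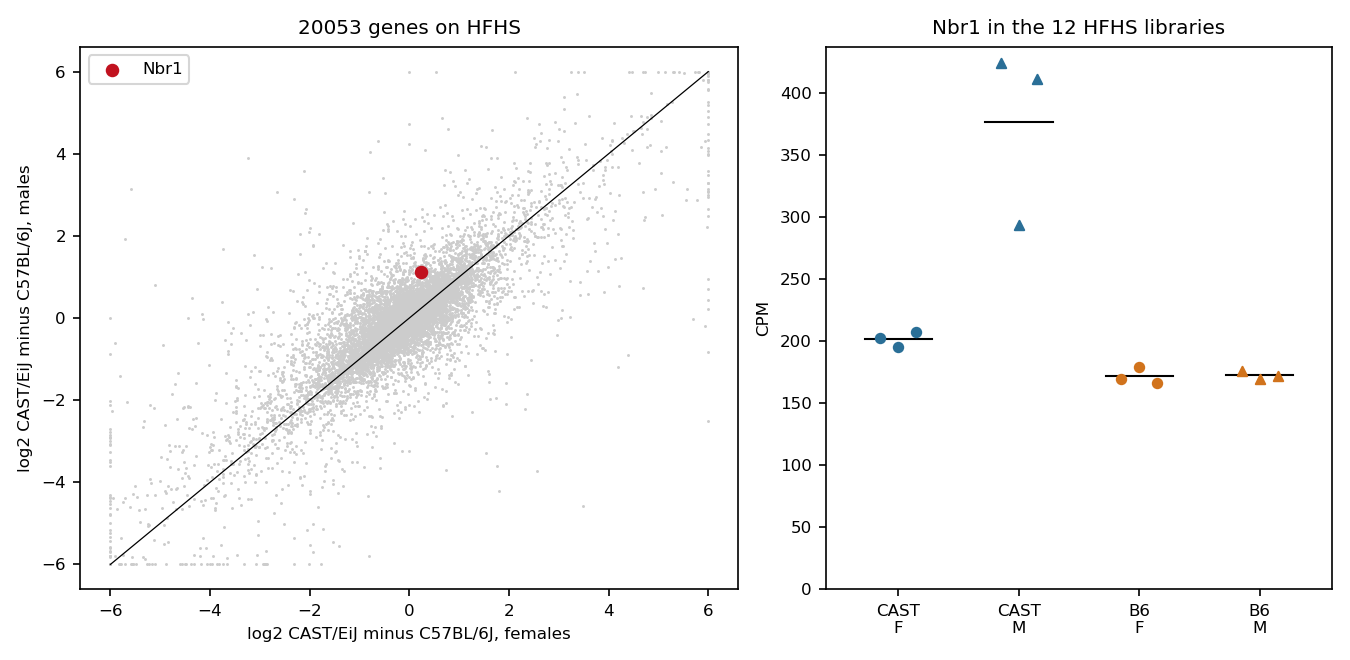
Left, the log2 strain difference in females (horizontal) and males (vertical) for 20053 genes, with points beyond 6 drawn at the edge. Right, Nbr1 in CPM in each of the 12 HFHS libraries, where CAST males (294 to 424 CPM) lie above all other libraries.

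The same strains on the control diet gave a separate set of 12 libraries. There 8549 genes (42.6%) were called between CAST and B6. Of the genes called on HFHS, 96.1% had the same sign on the control diet and 73.2% were also called there in that direction, which is 72.9% of the control-diet calls. Among genes not called on HFHS, 67.5% had the same sign. Over 15404 genes the differences on the 2 diets correlated at r = 0.943. The test of the diet difference called 0 genes by edgeR, with 2041 genes at an unadjusted p under 0.05, 0 genes by limma and 26 genes by DESeq2. Among the 6 genes called on both diets with opposite signs were Polr2a, Id3, Reln, Exoc6 and Hba-a2.

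**Figure D5:**
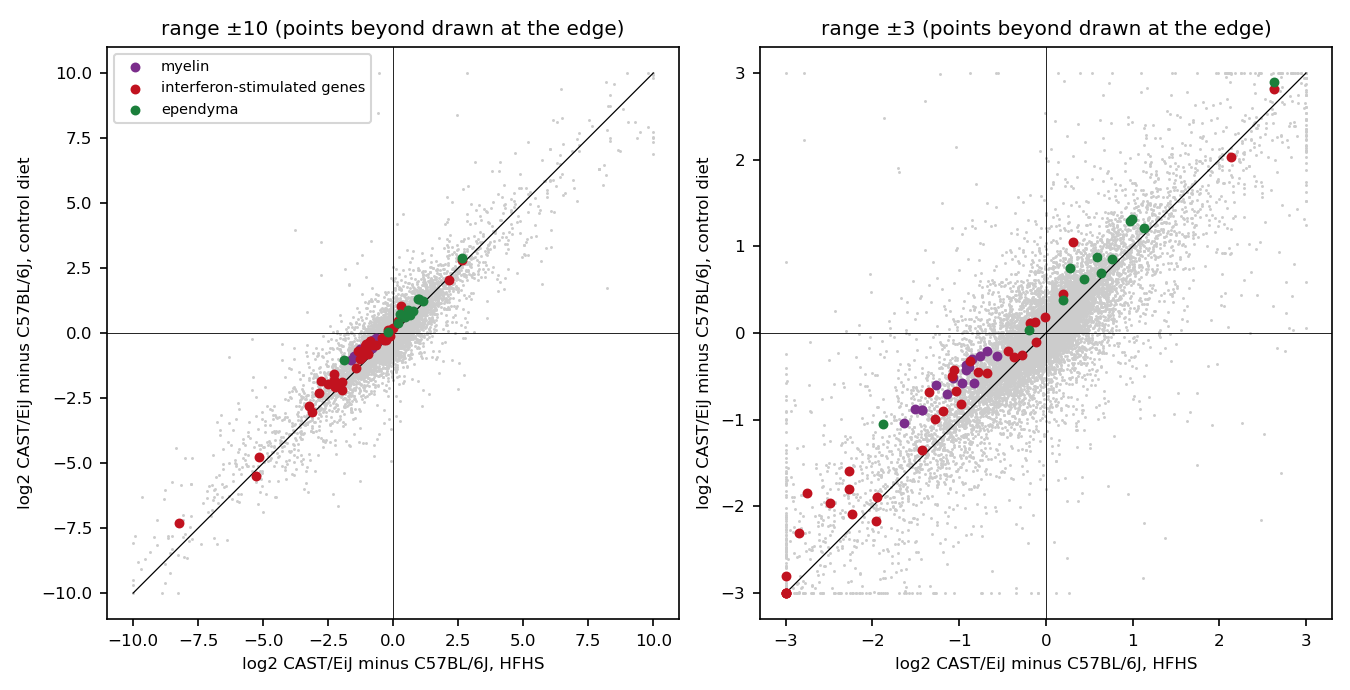
Log2 strain difference on HFHS (horizontal) and on the control diet (vertical) for all tested genes, with a range of 10 at the left and of 3 at the right. Most myelin genes lie above the diagonal in the lower left, with medians of -0.94 on HFHS and -0.55 on the control diet.

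Myelin, interferon, antigen presentation, ependyma and feeding-promoting peptide genes had medians of the same sign on the control diet. Myelin genes had 14 lower calls of 16 there, at a median of -0.55. Mobp, for example, differed by -1.04 ± 0.15 on the control diet and by -1.64 ± 0.15 on HFHS, and the test of that difference gave an adjusted p of 0.37. The highest of the control-diet CAST libraries, female replicate 1, had a summed myelin level of 6962 CPM, against 2418 to 4018 CPM in the other 5, and also held pituitary genes at 3071 CPM and reactive gliosis genes at 1173 CPM. Without it, 16 myelin genes were called lower on the control diet, at a median of -0.69, and ependyma had 6 higher calls. Interferon-stimulated genes had 23 lower and 4 higher calls of 35 there (median -0.68), antigen presentation 10 and 4 of 21 (median -0.55), ependyma 1 and 9 of 12 (median 0.80) and feeding-promoting peptides 0 and 6 of 10 (median 0.49). Other lists had a median of the other sign on the control diet: reactive gliosis, with 3 lower and 4 higher calls (median 0.35), blood cells, with 0 and 3 (0.08), and microglia, with 5 and 4 (0.06). So did the receptors of feeding signals (-0.04), the GABA system (-0.04), the glutamate system (-0.10) and voltage-gated channels (-0.15), whose medians on HFHS were 0.15, 0.08, 0.04 and 0.04. For glutathione and detoxification the medians were 0.19 there and -0.02 on HFHS, and for cortex, striatum and thalamus -0.07 and 0.18. The monoamine (-0.14 and 0.09) and glucocorticoid-induced lists (-0.03 and 0.17) changed sign too. Oxidative phosphorylation (0.10 and -0.02), fatty acid and lipid metabolism (0.06 and -0.03), astrocytes (0.08 and -0.02) and hypothalamic transcription factors (0.05 and -0.03) did likewise. Without female replicate 1 the control-diet medians of microglia (-0.07) and of the receptors (0.03) had the same sign as on HFHS. The other sign remained for reactive gliosis (0.10), blood cells (0.08), the GABA system (-0.05), the glutamate system (-0.04) and channels (-0.08). It also remained for the further lists named above, from glutathione and detoxification (0.13) to hypothalamic transcription factors (0.03).

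The number of diet-difference calls rose when 1 library, CAST control-diet female replicate 2, was left out. Without it 627 genes (3.07%) were called, 459 (2.24%) with a more positive and 168 (0.822%) with a more negative strain difference on HFHS, while leaving out any other library gave 0 to 2. Among the lists, voltage-gated channels then had 8 of 34 called more positive, insulin and leptin signalling 5 of 30, among them Irs1, Mtor and Tsc1, and the GABA system 4 of 22. Reactive gliosis had 4 of 16 called more negative, myelin 3 of 16 (Cnp, Mag and Mbp), antigen presentation 3 of 21 (H2-K1, B2m and Tapbp) and blood cells 3 of 11. For Gfap the difference between the diets was then -0.99 (adjusted p = 0.0176), and for H2-K1 -0.80 (adjusted p = 0.00676).

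That fit left CAST control-diet female replicate 1, the pituitary-rich library, as 1 of 2 in its group. Its voltage-gated channel genes summed to 2573 CPM, against 3828 to 4393 CPM in the other 5 control-diet CAST libraries, and its reactive gliosis genes to 1173 CPM, against 407 to 534 CPM. The calls in the channel, gliosis and myelin lists lie in the direction in which this library differed from the others. Without both replicates 1 and 2 the test called 235 genes (1.11%), with the 1 remaining female library assumed to vary like the other groups, and Gfap then differed by -0.54 (adjusted p = 0.183) and H2-K1 by -0.62 (adjusted p = 0.0475). Without replicate 1 alone the count was 0. The blood list summed to 1862 CPM in replicate 1, 1789 CPM in replicate 2 and 1254 CPM in replicate 3. In replicate 2 the channel genes summed to 4368 CPM and the reactive gliosis genes to 501 CPM, inside the ranges given above. Why the count rose without replicate 2 was not tested.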

How the data were processed

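RNA of pulverized frozen hypothalamus was sequenced by the submitters as polyA-selected libraries (KAPA mRNA HyperPrep) with paired reads on a NovaSeq, per the labels' protocols. The authors deposited a table of expected counts per gene, a table of log2 values after a variance-stabilizing transformation (VST) and an annotation of gene positions. The submitters' processing notes name DESeq2 and GRCm38. Which aligner, counter and gene annotation were used, how strand was treated and whether CAST reads were aligned to a genome of their own strain were not given in the sources used here. Reads that match the reference less well in CAST would lower its counts, and this could not be measured from the tables.

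Expected counts, of which 21% were not whole at a tolerance of 0.001, were rounded, although whole counts had been assumed when the tests were chosen. Library totals of the 12 HFHS libraries were 24.96 to 44.29 M. All 36 libraries were fitted with 1 mean for each of 12 groups of strain, diet and sex in edgeR 4.0.16 (R 4.3.3) with filterByExpr, TMM factors and the quasi-likelihood F-test, with 24 residual degrees of freedom and a common biological coefficient of variation of 12.1%. Of 24265 deposited genes 20053 were tested, and a gene was called at a Benjamini-Hochberg adjusted p under 0.05. The strain difference weights females and males equally, and all adjusted p-values in the text come from this test unless another is named. Differences beyond 1.5-fold were tested with glmTreat. The ± values beside log2 differences are standard errors, and levels are CPM scaled by the TMM factors. Replicate libraries of a group differed by more than counting noise in every pair. Scripts were tested on simulated data.

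The genes named are the 12 smallest p-values and the 12 largest log2 differences in each direction, among called genes that averaged 1 CPM or more (5 CPM in the higher strain for the largest) and had a proper symbol, up to 5 for each interaction, and up to 6 called members with the smallest p of each list. Other names were chosen after their values were seen: Isg15, Mx1, Mx2, B2m, Cd74, Pomc, Cartpt, Lepr, Mc4r, Ide, Grb10, Mbp, Mag, Tspan2, Pdgfra, Cspg4, Tapbp, Mtor, the copies, the overlapping gene and the genes of opposite sign. The members and lists were chosen with earlier results of these data known. Some genes that the rule names are not reported here. Copies were searched with GENCODE transcripts (at least 95% identity, 200 bases and 50% of the shorter transcript). Promoters were read from RefSeq for GRCm38.p6. Alternatives were median-ratio factors, no filter, a strict filter (1 CPM in 6 libraries), totals without genes above 1%, the 12 libraries alone, 2 surrogate variables (sva 3.50.0), limma 3.58.1 on the VST values, DESeq2 1.42.0 and leaving out each library.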

Additional observations from a re-analysis of the deposited data

Results flagged for a closer look

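In 10 of 156 groups of 6 libraries checked (39 named genes and 39 list sums in each strain), the most extreme library lay far from the other 5 relative to the range of the group. Chance gives this in about 1 of 20 groups, and 6.41% were found. Retsat was at 16.3 CPM in B6 female replicate 3, against 14.5 to 15.1 CPM in the other 5. Sfi1, in the same library, was at 55.3 CPM, against 41.7 to 46.8 CPM. Tmem254b was at 10.1 CPM there, against 15.58 CPM or more, and at 0.137 CPM in CAST male replicate 1, with the other CAST libraries at 0. Rpl9-ps6 was at 1.10 CPM in CAST male replicate 1, against 0 to 0.194 CPM. Amd2 was at 69.9 CPM in CAST female replicate 3, against 62.6 to 65.3 CPM. Gvin1 was at 13.8 CPM in B6 female replicate 1, against 5.01 to 7.71 CPM.

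Among list sums, the feeding-promoting peptides reached 988 CPM in CAST male replicate 1, the library that also held the highest Hcrt and Pmch. Oxidative phosphorylation genes reached 5712 CPM in B6 male replicate 2, against 4836 to 5056 CPM in the other B6 libraries. Interferon-stimulated genes summed to 161 CPM in CAST female replicate 3, against 146 to 151 CPM. The strain difference of Nbr1 differed between the sexes by -0.90 on the log2 scale, by a test of the difference itself. The causes of these values were not tested.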

How the results depend on the processing

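The count of 8518 genes between the strains ranged from 7424 (strict filter) to 9596 (2 surrogate variables), and from 7860 to 9383 when single libraries were left out. Of 242 named genes, 236 were tested in all 21 alternatives. Wherever they were tested, 212 of the 242 kept their call, 30 lost it in at least 1 alternative and 0 reversed. Beyond 1.5-fold limma on VST values called 266 genes (the cause was not tested), and leaving out libraries gave 2072 to 2339. Females gave 4608 to 6635 and males 4519 to 6461 when a library was left out. The sex difference called 0 genes with only the libraries compared, 0 with 2 surrogate variables, 3 with DESeq2 and 0 to 1 when a library was left out. The diet difference called 26 genes with DESeq2 and 0 to 627 when a library was left out, with 627 reached without CAST control-diet female replicate 2. The control-diet strain difference, 8549 genes, was also counted without CAST control-diet female replicate 1 (8442 genes) and without replicate 2 (9229 genes), and the diet difference without both replicates 1 and 2 (235 genes), alternatives chosen after seeing the data. No paired analysis was possible because the labels give the libraries no replicate numbers, and the numbers used here follow the order of the samples. Low counts limit Isg15, Iigp1 and Mx1, and the genome to which CAST reads were aligned, which was not given, could matter for polymorphic genes.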
